A study of Saccharomyces cerevisiae with 67 samples.

Results

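Yeast copies its nuclear genome into RNA with 3 RNA polymerases, and the genes that encode their subunits were examined here against the regions marked by acetylation of lysine 12 of histone H4 (H4K12ac). Members were taken by symbol from the sacCer3 (R64) annotation of nuclear protein-coding genes, as those named RPA, RPB or RPC plus a number alone, together with RPO21, RPO26, RPO31 and RET1. The rule uses names and no measured value, and it took 31 of the 6002 nuclear protein-coding genes. The annotation describes the product of all 31 as an RNA polymerase subunit. Of these genes, 7 encode subunits found in RNA polymerase I (Pol I) alone, 7 in Pol II alone and 10 in Pol III alone, 2 are shared by Pol I and Pol III, and 5 are shared by all 3 enzymes.

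The H4K12ac ChIP-seq libraries came from strain BY4741, either wild type (WT) or deleted for MIP6, an RNA-binding protein of mRNA export (mip6Δ, written mip6D in the sample labels). Cultures grew exponentially in the rich medium YPD, and each was divided between 30 °C and a heat shock of 20 or 120 min at 39 °C. Of the 19 libraries, 8 were WT (3 unshocked, 1 shocked for 20 min, 4 for 120 min) and 11 were mip6Δ (4, 3 and 4 in the same order). What was analysed is 1 consensus list of 1970 regions that pools peaks across the H4K12ac samples, with a start and an end for each region and no height, score, read count or sample. The sources do not list which libraries entered it, so it may rest on others than these 19 as well. The strains and times cannot be told apart in it, no value has a replicate error, and the depth behind a region is unknown, so the values below are counts and distances with no test. A region shows that some library had a peak there, not how strong the mark was. The regions had a median length of 2835 bp and covered 61.8% of the nuclear genome. Because the peaks were called without the total H4 libraries, more acetylation and more H4 cannot be told apart.

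Pol I makes the large ribosomal RNA precursor, Pol II makes mRNA, and Pol III makes tRNA and 5S rRNA. Each enzyme has a core built around its largest and second-largest subunits, which form the active site, and the smaller subunits add a stalk, modules that act in initiation or RNA cleavage, and a set of common parts. H4K12ac is placed on chromatin largely by the NuA4 acetyltransferase, also occurs on newly made H4, and is known as a mark of active promoters. Promoters of Pol I and Pol III subunit genes are known for the PAC box, a motif named after polymerases A and C, the older names of these enzymes, and many genes of ribosome production carry it together with the ribosomal RNA processing element (RRPE).

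In the genes for the largest and second-largest subunits the region over the start ended inside the gene, as described further on. RPC82 shared this, and only the promoters of the largest and second-largest subunit genes are shown in full. Each holds the 250 bp before the coding sequence and its first 50 bp (300 bp in all, R64 reference genome of RefSeq), 5′ to 3′ on the strand of the gene. Capitals mark the core letters of the PAC box (GATGAG, or CTCATC where it lies on the other strand) and of RRPE (AAAATTTT, which reads alike on both strands). The positions are chrXV:960737-961036 (plus strand) for RPA190, chrXVI:581147-581446 (minus) for RPA135, chrIV:210512-210811 (minus) for RPO21, chrXV:616622-616921 (minus) for RPB2, chrXV:544096-544395 (minus) for RPO31 and chrXV:733408-733707 (minus) for RET1. The Pol I pair and the Pol III pair all held PAC letters before the start, and the Pol II pair did not.
RPA190: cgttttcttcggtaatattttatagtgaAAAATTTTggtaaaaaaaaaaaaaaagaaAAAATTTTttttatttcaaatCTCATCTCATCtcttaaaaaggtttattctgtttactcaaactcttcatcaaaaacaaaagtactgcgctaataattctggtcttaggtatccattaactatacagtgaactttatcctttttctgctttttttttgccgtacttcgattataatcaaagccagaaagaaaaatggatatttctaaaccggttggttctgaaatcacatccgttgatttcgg
RPA135: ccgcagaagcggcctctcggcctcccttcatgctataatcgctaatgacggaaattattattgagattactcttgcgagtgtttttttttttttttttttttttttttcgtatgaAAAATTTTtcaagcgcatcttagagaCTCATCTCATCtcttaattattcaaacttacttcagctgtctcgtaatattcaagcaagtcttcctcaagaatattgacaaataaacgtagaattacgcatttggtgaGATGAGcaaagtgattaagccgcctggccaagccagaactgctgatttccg
RPO21: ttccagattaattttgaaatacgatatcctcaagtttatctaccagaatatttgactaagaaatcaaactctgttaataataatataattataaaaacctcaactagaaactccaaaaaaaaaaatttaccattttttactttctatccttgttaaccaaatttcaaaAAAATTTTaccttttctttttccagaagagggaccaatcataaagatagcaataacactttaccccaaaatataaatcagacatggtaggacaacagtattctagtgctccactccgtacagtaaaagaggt
RPB2: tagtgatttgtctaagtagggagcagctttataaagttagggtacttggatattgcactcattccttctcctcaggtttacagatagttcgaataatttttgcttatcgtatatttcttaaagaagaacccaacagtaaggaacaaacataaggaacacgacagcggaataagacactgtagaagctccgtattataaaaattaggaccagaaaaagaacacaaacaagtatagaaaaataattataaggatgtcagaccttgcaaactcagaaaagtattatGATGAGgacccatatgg
RPO31: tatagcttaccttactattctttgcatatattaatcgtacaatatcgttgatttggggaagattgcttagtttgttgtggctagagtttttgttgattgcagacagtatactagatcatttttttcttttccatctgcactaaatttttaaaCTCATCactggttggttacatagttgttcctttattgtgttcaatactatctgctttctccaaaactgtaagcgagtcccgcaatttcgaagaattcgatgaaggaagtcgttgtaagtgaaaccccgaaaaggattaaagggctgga
RET1: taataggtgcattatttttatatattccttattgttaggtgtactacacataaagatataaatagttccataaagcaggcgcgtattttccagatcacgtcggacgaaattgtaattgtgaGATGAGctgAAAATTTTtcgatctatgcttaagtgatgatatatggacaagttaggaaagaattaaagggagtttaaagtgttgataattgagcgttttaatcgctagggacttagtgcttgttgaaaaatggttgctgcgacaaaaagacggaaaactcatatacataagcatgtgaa

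The whole of each of these 6 windows lay inside a region. In RPA190 and RPA135 the PAC letters occur as 2 overlapping copies on the strand opposite to the gene, downstream of an RRPE. RPA135 has a further match that contains its start codon. In RPB2 the match begins 33 bp after the first coding base, within the protein-coding sequence.

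At gene starts the subunit genes showed a single pattern. In all 31 genes a region overlapped, by 1 bp or more, the window that reaches 100 bp to either side of the start, where the background over all 6002 genes was 90.5%. The whole window lay in 1 region in all 31 genes as well, against a background of 89.2%. In 7 of 7 Pol I genes, 7 of 7 Pol II genes, 10 of 10 Pol III genes, 2 of 2 genes of Pol I and III and 5 of 5 genes common to all enzymes the start was inside a region. With such a high background, 31 of 31 is no result about these genes in particular. The distance from the start to the upstream edge of the region ranged from 441 bp in RPC11 to 12263 bp in RPC31, with a median of 1621 bp, against a median of 2216 bp over the 5396 genes whose start lies in a region. The downstream edge lay between 117 bp (RPO21) and 16251 bp (RPC34) from the start, with a median of 1958 bp, against 1648 bp over the same 5396 genes.

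**Figure D1:**
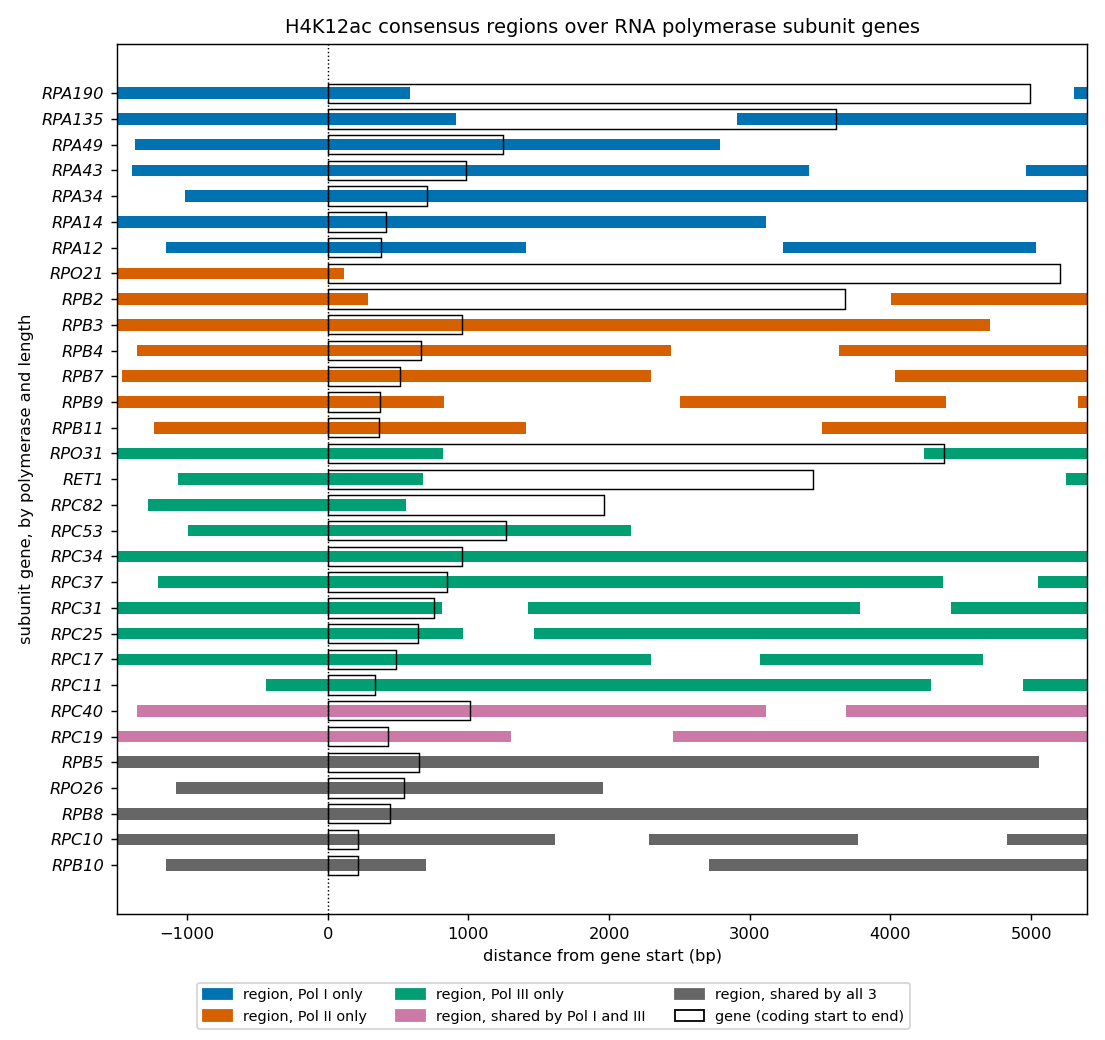
Regions (coloured bars) over the 31 subunit genes (black outlines, coding start to end), each aligned at its start at 0 bp, with distance in bp on the horizontal axis and genes ordered by polymerase and length. All 31 starts lie inside a region, 24 genes are covered from end to end, and the outlines of the 7 longest genes are partly empty.

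Coverage of the gene from start to end divided the members by length. Regions covered 24 of the 31 genes completely, against a background of 55.0%, and these 24 genes were 213 to 1269 bp long. The 7 genes with an uncovered part were RPO21, RPA190, RPO31, RPB2, RPA135, RET1 and RPC82, the 7 longest of the set, from 1965 to 5202 bp. The members were shorter than most genes, with a median length of 702 bp against 1200 bp over all genes. Under 1000 bp, 21 of 21 members were complete, as were 86.7% of the 2410 genes of that class. Between 1000 and 2000 bp it was 3 of 4 members and 50.1% of 2266 genes. Over 2000 bp 0 of 6 members were complete, and 5.96% of 1326 genes were. This last class is no match in length, since the median was 4029 bp in the members and 2715 bp in all its genes, and of the 350 genes of at least 3450 bp, the length of RET1, 0 were complete.

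**Figure D2:**
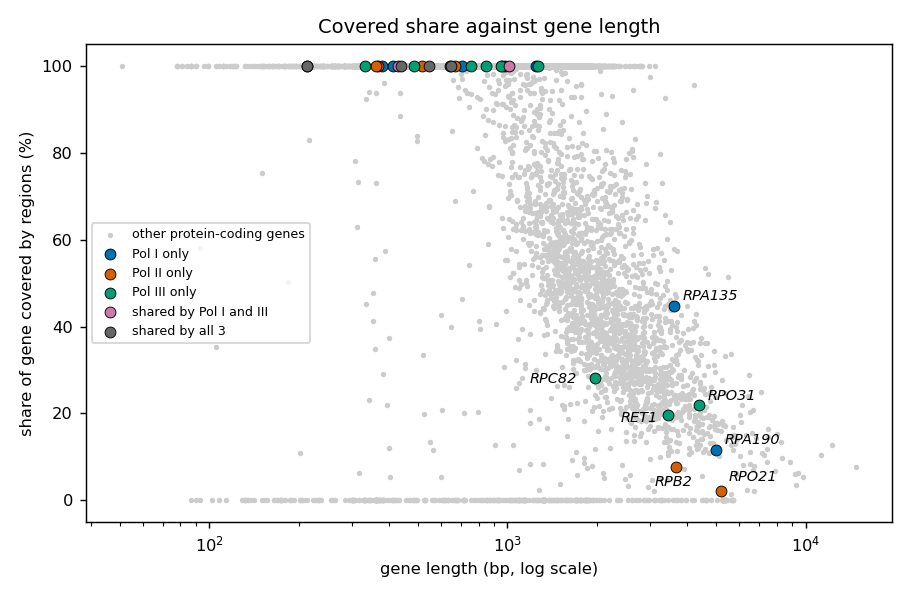
Share of each gene covered by regions (percent, vertical axis) against gene length (bp, log scale), with 1 point per protein-coding gene and the subunit genes coloured by polymerase. The 24 complete members lie at 100% and are 1269 bp or shorter, and the 7 named members lie between 2.27 and 44.7%.

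The Pol II pair had the least coverage. RPO21 (YDL140C, chromosome IV, 205360 to 210561) encodes the largest subunit, whose tail of repeated heptads is the platform of mRNA processing. Its start sat in a region of 1979 bp (210444 to 212422) that ended 117 bp inside the gene, so that 118 of 5202 bp were covered, or 2.27%. RPB2 (YOR151C, chromosome XV, 612997 to 616671) encodes the second-largest subunit. A region of 2737 bp (616386 to 619122) ended 285 bp inside it, and 286 of 3675 bp were covered, or 7.78%. Both genes have a tandem upstream neighbour, SCM3 for RPO21 and ATG40 for RPB2, and in each case the same region also held the start of that neighbour. The next region lay 1489 bp beyond the end of RPO21 and 331 bp beyond that of RPB2.

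In the Pol I pair the regions reached further into the genes. RPA190 (YOR341W, chromosome XV, 960987 to 965981) encodes the largest subunit, and 584 of its 4995 bp were covered, or 11.7%, all from the start onwards. The region (956763 to 961570, 4808 bp) also holds the start of RPA43, the divergent neighbour 804 bp away. RPA135 (YPR010C, chromosome XVI, 577585 to 581196) encodes the second-largest subunit and was covered at both ends, over 915 bp from the start and 701 bp at the gene end. The covered share was 44.7%, the highest of the large subunit genes, with 1996 bp uncovered in between. The region at its start is 10939 bp long (580282 to 591220), and the one at its end (575199 to 578285) holds the start of SUT2.

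In the Pol III pair both covered shares lay between those of the Pol I pair. RPO31 (YOR116C, chromosome XV, 539763 to 544145), the gene of the largest subunit, had 816 bp covered from the start and 143 bp at the end, 21.9% of its 4383 bp. Its start region (543330 to 545766) also holds the start of RPT5, a divergent neighbour that encodes a proteasome ATPase, and the region at its end (537417 to 539905) holds the starts of CIM1 and TRS33. RET1 (YOR207C, chromosome XV, 730008 to 733457), the gene of the second-largest subunit, had 678 of 3450 bp covered, or 19.7%, by a region of 1740 bp (732780 to 734519) that it shares with the divergent gene PTP2. The remaining gene with a gap was RPC82 (YPR190C, chromosome XVI, 917077 to 919041), whose product belongs to the trimer that recruits Pol III to its promoters. Here 555 of 1965 bp were covered, or 28.2%, from a start region of 1831 bp (918487 to 920317).

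The distance from the start to the downstream edge was set beside that in other long genes. Of the genes over 2000 bp, 1113 had a start region that ended inside the gene, at a median of 810 bp (quartiles 672 and 942 bp). RPO31 at 815 bp was close to that median. RPA135 at 914 bp and RET1 at 677 bp were inside the quartiles, and RPA190 at 583 bp was below the lower one. Genes over 2000 bp are no match in length for these members. In the 271 genes of at least 3450 bp with such an edge, the median was 794 bp and the quartiles were 629.5 and 913.5 bp. RPA135 was just above the upper of these quartiles. The Pol II pair had nearer edges: 5 of the 1113 genes, or 0.449%, had one nearer than RPO21, and 16, or 1.44%, had one nearer than RPB2. By covered share, 98 of all 1326 genes over 2000 bp, or 7.39%, were covered less than RPO21 and 120, or 9.05%, less than RPB2. This wider set includes genes with no region at the start, since the start window was touched in 1199 of them, or 90.4%. Ranks by edge and by covered share are therefore not directly comparable. These ranks describe 1 list, and 2 genes per enzyme do not allow a test between enzymes. Read as shares of the gene, the 6 values (2.27 to 44.7%, median 15.7%) can be set beside genes of similar length: the 350 genes of at least 3450 bp, the length of RET1, had a median of 17.6% and quartiles of 8.78 and 27.1%. That bound was chosen after the values were seen. Of these 350 genes, 272, or 77.7%, had a touched start window, against 6 of 6 members. This reference thus includes genes with no region at the start.

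**Figure D3:**
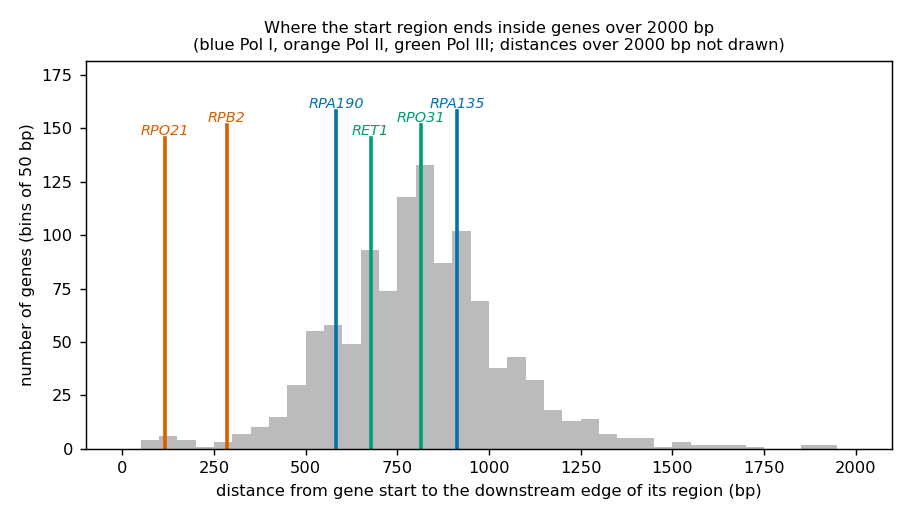
Distance from the gene start to the downstream edge of its region (bp) in genes over 2000 bp whose start region ends inside the gene (grey, number of genes per bin of 50 bp), with the 6 longest subunit genes as vertical lines coloured by polymerase. The lines of RPO21 (117 bp) and RPB2 (285 bp) lie left of the bulk, and those of the other 4 lie between 583 and 914 bp.

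None of the uncovered bases in the 7 genes fell in a 50-mer that occurs again in the nuclear genome (0 bp in each gene). The GC content of the covered and uncovered parts was 42.4 and 40.8% in RPO21, 38.5 and 38.5% in RPB2, 37.2 and 38.2% in RPA190, 40.6 and 39.2% in RPA135, 41.6 and 38.6% in RPO31, 36.6 and 37.3% in RET1, and 42.3 and 37.5% in RPC82. The part of base composition in the gaps was not tested.

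The genes of the smaller modules were covered completely, apart from RPC82. The counts by module here and below stand beside 86.7% of all genes under 1000 bp and 50.1% of those of 1000 to 2000 bp. They follow gene length and are not read as traits of the modules. The stalk, which protrudes from each polymerase and contacts initiation factors and the new RNA, was represented by 6 genes of 414 to 981 bp, 6 of them complete. For Pol I these were RPA43 (YOR340C, chromosome XV, 959202 to 960182) and RPA14 (YDR156W, chromosome IV, 769525 to 769938). For Pol II they were RPB7 (YDR404C, chromosome IV, 1276654 to 1277169) and RPB4 (YJL140W, chromosome X, 150961 to 151626), and for Pol III RPC25 (YKL144C, chromosome XI, 175843 to 176481) and RPC17 (YJL011C, chromosome X, 414285 to 414770). The 6 regions were 3761 to 6015 bp long. The one over RPC25 ran only 324 bp past the end of the gene, and the one over RPA43 ran 2439 bp past it. RPA14 overlaps the gene YDR157W by 8 bp.

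The modules related to the factor TFIIF, which act in initiation and elongation, comprised 4 genes, 4 of them complete. They were RPA49 (YNL248C, chromosome XIV, 181361 to 182608) and RPA34 (YJL148W, chromosome X, 140437 to 141138) in Pol I, and RPC53 (YDL150W, chromosome IV, 183343 to 184611) and RPC37 (YKR025W, chromosome XI, 487770 to 488618) in Pol III. RPC53, at 1269 bp, was the longest complete member, in a region of 3147 bp (182353 to 185499) that started 990 bp before the gene and passed its end by 888 bp. The pair of subunits on which assembly of each enzyme begins was complete in 4 of 4 genes. In Pol II it is RPB3 (YIL021W, chromosome IX, 312905 to 313861) with RPB11 (YOL005C, chromosome XV, 315813 to 316175), and its counterpart in both Pol I and Pol III is RPC40 (YPR110C, chromosome XVI, 745828 to 746835) with RPC19 (YNL113W, chromosome XIV, 412771 to 413199).

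Of the Pol III initiation trimer, the partners of RPC82 were complete and stood in much longer regions. RPC34 (YNR003C, chromosome XIV, 634344 to 635297) lay in a region of 18823 bp (619046 to 637868), the fourth longest of the list, with 12 gene starts. RPC31 (YNL151C, chromosome XIV, 347766 to 348521) lay at the edge of a region of 13074 bp (347711 to 360784) with 11 gene starts, and the region passed the end of the gene by just 55 bp. The small zinc-binding subunits tied to RNA cleavage or proofreading were complete in 3 of 3 genes of 333 to 378 bp: RPA12 (YJR063W, chromosome X, 555195 to 555572), RPB9 (YGL070C, chromosome VII, 374459 to 374827) and RPC11 (YDR045C, chromosome IV, 547978 to 548310). RPC11 had the nearest upstream edge of all members, 441 bp, and its tandem upstream neighbour BAP3, an amino acid permease gene, had its start outside the region.

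The 5 subunits common to all enzymes are encoded by short genes, and 5 of 5 were complete. They were RPB5 (YBR154C, chromosome II, 548362 to 549009), RPO26 (YPR187W, chromosome XVI, 911257 to 911800), which encodes the subunit also called Rpb6 and has 2 coding exons, RPB8 (YOR224C, chromosome XV, 760825 to 761265), RPB10 (YOR210W, chromosome XV, 738320 to 738532) and RPC10 (YHR143W-A, chromosome VIII, 387233 to 387445), whose product is also known as Rpb12. Their regions ranged from 1845 bp over RPB10 to 11932 bp over RPC10. Summed over all subunits of an enzyme, shared ones included, regions covered 59.5% of the 15826 bp of the 14 Pol I genes, 38.6% of the 13807 bp of the 12 Pol II genes and 59.1% of the 18580 bp of the 17 Pol III genes. Over all protein-coding genes the share of summed bases was 57.0%, a reference not matched in length. The lower Pol II value rests on RPO21 and RPB2, since the other 10 Pol II genes were complete. RPO21 and RPB2, at 5202 and 3675 bp, are also a large part of the 13807 bp. The Pol II value thus depends on gene length as well as on coverage.

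Along the gene, the share of members inside a region was 100% at the start. For the 21 members under 1000 bp it was still 100% at 500 bp and 81.0% at 1000 bp, where it was 79.5% over all genes of that length. For the 6 members over 2000 bp it was 66.7% at 500 bp and 0% at 1000, 1500 and 2000 bp. All genes over 2000 bp were inside a region in 84.5% of cases at 500 bp, 21.9% at 1000 bp, 10.0% at 1500 bp and 18.1% at 2000 bp. These genes are no match in length, with a median of 2715 bp against 4029 bp in the 6 members. Upstream, at 500 bp before the start, 96.8% of members and 82.2% of all genes were inside a region.

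**Figure D4:**
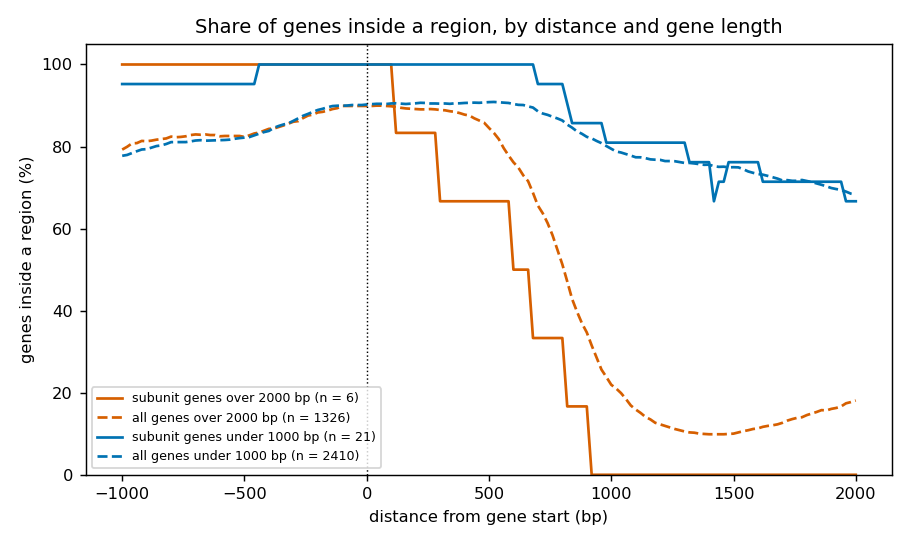
Percent of genes inside a region (vertical axis) at each distance from the gene start (bp, steps of 20 bp), for subunit genes (solid lines) and all protein-coding genes (dashed lines) over 2000 bp and under 1000 bp. Of the long subunit genes 66.7% are inside at 500 bp and 0% at 1000 bp, while the short ones are at 81.0% there. The long sets differ in median length (4029 bp in subunit genes, 2715 bp in all genes).

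Gene ends followed the division by length only in part, since regions also reached the ends of RPA135 and RPO31, which had gaps. A region touched the window of 100 bp on each side of the gene end in 26 of 31 members, against a background of 72.1%. That background is not matched in length. Under 1000 bp it was 21 of 21 members and 91.0% of all genes. Between 1000 and 2000 bp it was 3 of 4 members and 64.6%. Over 2000 bp it was 2 of 6 members and 50.5%, or 40.9% of the 350 genes of at least 3450 bp. The 5 ends without one were those of RPA190, RPO21, RPB2, RET1 and RPC82, and the next region lay 310 bp past the end of RPA190 and 1801 bp past that of RET1. In the complete genes the region passed the gene end by 55 to 15298 bp, with a median of 1780 bp.

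The members were spread over 10 chromosomes, with 8 on chromosome XV, and their starts lay in 30 regions. The share of all genes on chromosome XV was not counted. One region held a pair of members, RPA43 and RPA190 (956763 to 961570). No member was the only gene start in its region, as 10.5% of the 5396 genes with a start in a region were, and 9 members shared the region with a single other start. The median was 3 starts per region, against 4 over those 5396 genes, and the lower quartile was 2 in both sets. Region length had a median of 4473 bp over the members and 4819 bp over those genes. Among the longest 5% of regions, 99 in all, were 4 that held members: those of RPC34, RPC31, RPC10 and RPA135. These long regions also hold many other starts. Without them, touched start windows fell from 31 to 27 of the 31 members and from 90.5% to 76.1% of all genes. The shortest was that of RET1 (1740 bp).

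Many of these starts face another gene. The upstream neighbour was divergent, that is, transcribed away from the member, for 21 of 31 genes, against a background of 51.9%. In 28 of 31 cases the start of that neighbour was inside the same region, against a background of 70.7%. The exceptions were RPA34, RPC17 and RPC11, each with a tandem neighbour. That background is 4246 of all 6002 genes, but only the 5396 genes with their own start in a region could count. All 31 members had such a start, so the shares are not directly comparable. Divergent pairs with both starts in 1 region included RPA12 with NTA1, RPB4 with YAK1, RPB7 with MRP20, RPC25 with LTV1, RPC37 with DBP7, RPC53 with SAS10 and RPB5 with CNS1. LTV1, DBP7 and SAS10 are known genes of ribosome production. The share of such genes was counted neither among the 21 divergent neighbours nor over all genes. The pairs above were named after their values were seen. The distance to the neighbour had a median of 570 bp, against 455 bp over all genes.

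The letters of the PAC core were counted in the promoters of all members, in the same window of 300 bp and on both strands. GATGAG occurred in 6 of 7 Pol I promoters, 8 of 10 Pol III promoters and 2 of 2 promoters of the subunits shared by these enzymes. It occurred in 1 of 7 Pol II promoters, that of RPB2, and in 0 of 5 promoters of the common subunits. This made 17 of 31 members, where 20.4% of all promoters hold the letters. Before the start alone it was 16 members and 17.0% of all promoters, with RPB2 dropping out. The members of Pol I and Pol III without the letters were RPA12, RPC17 and RPC11. The box was first described in genes of this kind, so its frequency here is a description of the set and no independent evidence.

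**Figure D5:**
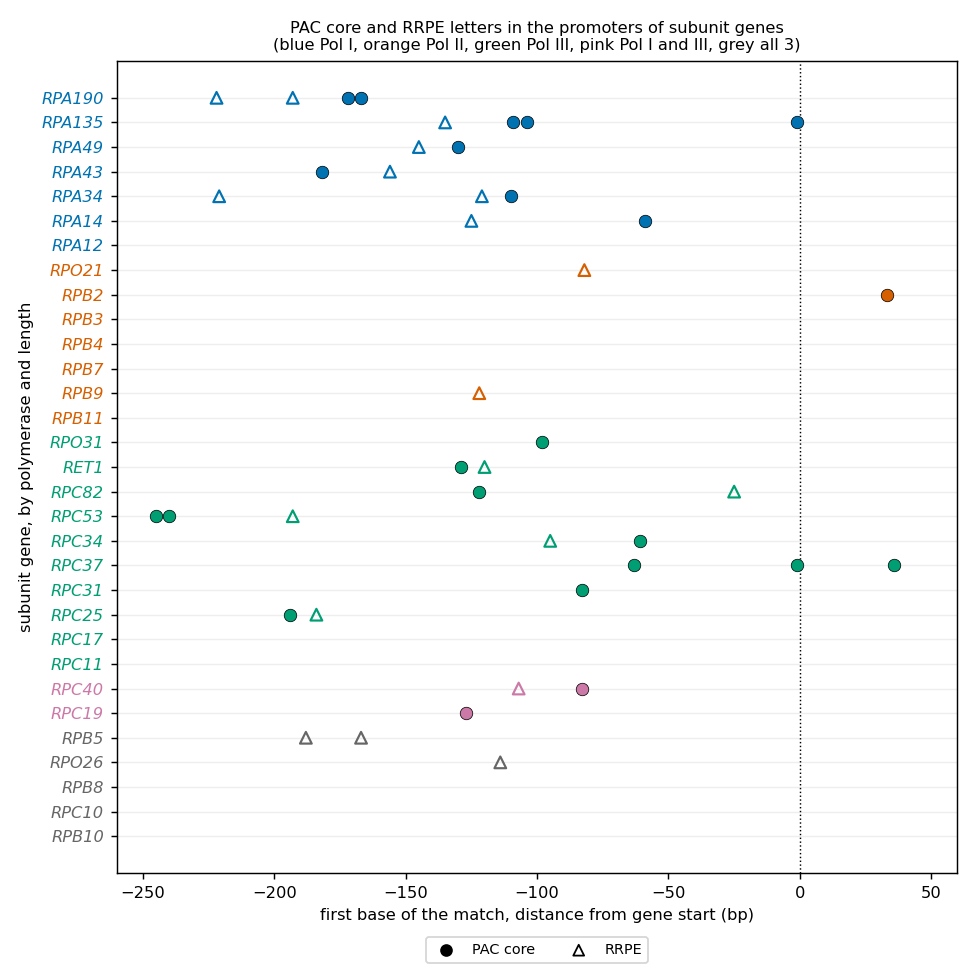
Position of each PAC core match (filled circles) and RRPE match (open triangles) in the promoters of the 31 subunit genes, as distance of its first base from the gene start in bp, with genes ordered by polymerase and length. PAC matches lie in 6 of 7 Pol I rows and 8 of 10 Pol III rows, with 1 in the Pol II rows, at 33 bp after the start, and 0 in the rows of the common subunits.

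Stretches of 30 bp around the match are given for further Pol I and Pol III members, to show which bases flank it. They are read on the strand of the gene, with each PAC core in capitals, and their positions are chrXIV:182721-182750 for RPA49, chrX:140315-140344 for RPA34, chrIV:769454-769483 for RPA14, chrXV:960347-960376 for RPA43, chrXVI:919146-919175 for RPC82, chrXIV:635341-635370 for RPC34, chrXIV:348587-348616 for RPC31, chrXI:176658-176687 for RPC25, chrXI:487695-487724 for RPC37, chrXVI:746901-746930 for RPC40 and chrXIV:412632-412661 for RPC19.
RPA49: attttttattgcGATGAGctgaaattttcc
RPA34: aaaaattttatcGATGAGcattgaatagct
RPA14: gattatagaggtCTCATCggtaaggcagag
RPA43: tgaaaagattccGATGAGggtgtatgggtg
RPC82: atttttcaaaagCTCATCgcattgaaggaa
RPC34: atgtatttgtgaGATGAGatcattacagaa
RPC31: gaaaatagtttcCTCATCgcagcaacctat
RPC25: attcaggcgatgCTCATCgcttaaaatttt
RPC37: ataaaagcgagaGATGAGcttaaatgatct
RPC40: aaaaattattgcGATGAGttgaaagaaaaa
RPC19: atattcacctgcGATGAGctggaaaaaaaa

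Positions are given as the distance of the first base of the match from the gene start, negative before it. In the Pol I genes the match stood at -130 bp in RPA49, -110 bp in RPA34, -59 bp in RPA14 and -182 bp in RPA43. In the Pol III genes it stood at -122 bp in RPC82, -61 bp in RPC34, -83 bp in RPC31, -194 bp in RPC25 and -63 bp in RPC37, which has further matches at -1 and 36 bp. RPC53 held overlapping copies at -245 and -240 bp, near the far end of the window. In the shared genes the match stood at -83 bp in RPC40 and -127 bp in RPC19. The longer form GCGATGAG, which contains the core, was in 6 members: RPA49, RPC82, RPC31, RPC25, RPC40 and RPC19, and in 3.93% of all promoters. The median position was -109 bp over the 23 core matches in members and -113 bp over the 1441 matches in all promoters. In these 300 bp windows, RRPE occurred in 16 of 31 members, against 9.03% of all promoters: 6 of 7 in Pol I, 2 of 7 in Pol II (RPO21 and RPB9), 5 of 10 in Pol III, 1 of 2 in the genes of Pol I and III and 2 of 5 in the common set (RPB5 and RPO26). PAC and RRPE together were in 12 members, 6 of them Pol I genes and 5 Pol III genes, and in 4.38% of all promoters.

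Further motifs were searched for comparison in the same windows and on both strands. TATAAA was in 15 of 31 members, and 45.2% of all promoters hold it. TTACCCG, the site of the general regulatory factor Reb1, was in 4 members (RPA14, RPB9, RPB11 and RPC19), and in 7.08% of all promoters. A match shows letters in a window and not binding. All 42 PAC and RRPE matches of the members lay wholly inside a region, as did 90.8% of the 2023 such matches in all promoters. Since the starts of all members were inside regions already, this count adds little to those at the starts. Over all genes, the start window was touched in 89.0% of the 1222 promoters with the PAC core and in 90.9% of the 4780 without it. Of the 263 promoters with both PAC and RRPE, 259 were touched, or 98.5%. These 263 include 12 members, and promoters with RRPE but no PAC core were not counted apart. Complete genes were 56.7% of the 263 and 55.4% of the genes without the PAC core. A link between the motifs and the regions was not tested.

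The factors that work with the polymerases were described in 5 lists with 53 genes. A region touched the start window of 53 of 53, beside the background of 90.5% given above, and 28 of 53 were complete, beside 55.0% of all genes. The counts by list below stand beside that 55.0%, and those of the PAC core beside 20.4% of all promoters. The 55.0% is not matched in length. Complete genes were 86.7% of all genes under 1000 bp, 50.1% from 1000 to 2000 bp and 5.96% over 2000 bp. The lists differ in gene length, so their counts of complete genes are not read as traits of the lists. Of 8 Pol I initiation genes (Rrn3, the core factor and the upstream activating factor) 6 were complete and 6 had the PAC core. Of 19 Pol II initiation genes 10 were complete and 6 had the PAC core. Of 9 genes for Brf1, Bdp1, TFIIIC and Maf1, the Pol III repressor, 3 were complete and 1 had it. Of 9 elongation genes 4 were complete and 3 had it, and of 8 genes for assembly and import of the polymerases 5 were complete and 5 had it. Of the 12 listed genes over 2000 bp, 1 was complete, TFC6, and the other 11 were covered over 11.9 to 40.6% of their length. SPT6, a histone chaperone gene of 4356 bp, had 11.9% covered, and TFC3 and TFC4, genes of TFIIIC subunits of 3573 and 3078 bp, had 27.0 and 27.8%. CTR9, the gene of a Paf1 complex subunit of 3234 bp, had 23.9% covered. A shorter gene was also low: RRN11, which encodes a core factor subunit, had 22.0% covered at 1524 bp. TFC6 and these 5 genes, the lowest of the lists, were named after their values were seen.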

How the data were processed

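H4K12ac ChIP-seq was done on WT and mip6Δ cells. Following the methods given with the data, the authors trimmed adapters with Cutadapt, mapped reads to sacCer3 with Bowtie2, found peaks with MACS2 from H4K12ac reads without using the H4 libraries, and joined overlapping peaks across samples (bedtools merge, default settings). Tool versions are not given in the sources used here. The deposited file holds region positions in bp, and its score column is 0 throughout. RNA-seq and H4 values were not used here.

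Region starts were converted to count from 1. Chromosome names match the R64 reference of RefSeq, and no region passes a chromosome end. Genes were taken from the first to the last coding base, so transcription truly begins further upstream. Windows reached 100 bp to either side and counted as touched at 1 bp of overlap. No test was made, since the list has no replicates and genes are not replicates. All members are named, and full values are given for those with gaps, shared or long regions and near edges. Motifs were searched on both strands. The members, lists and motifs were chosen with earlier results of these data known. Overlap functions were tested on simulated data. The alternatives changed windows, overlap, regions kept, background and motif. Python 3.11.15, NumPy 2.4.6 and Matplotlib 3.10.9 were used.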

Additional observations from a re-analysis of the deposited data

How the results depend on the processing

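No paired analysis was possible because 1 pooled list carries no replicate numbers, and leaving out a library could not be done either. A stricter peak threshold was not run, since the list has no scores. The number of members with a touched start window was 31 under every change of window, overlap or start position, and 27 without the longest 5% of regions, which by construction removes the regions of RPC10, RPC31, RPC34 and RPA135. The share over all genes ranged from 76.1% under that setting to 93.5% with 500 bp on each side. The number of complete members was 21 to 24, and that of touched gene ends 23 to 28. The share of complete genes over all genes was 42.5% without the longest regions. The PAC count fell from 17 to 6 members with the longer letters, since these are a subset of the core matches. With shared subunits counted in every polymerase, 12 of 14 Pol I, 10 of 12 Pol II and 14 of 17 Pol III genes were complete. Reads behind each region are not in the list, so what depth limits is unknown.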
